A study of Mus musculus with 28 samples.

Results

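H2BK120ac coverage in the group coded TD was set against the group coded ED over all 127646 deposited regions, the whole of the H2BK120ac table, with a region that holds no value counted as 0. H2BK120ac is histone H2B acetylated at a lysine near its C-terminus. CUT&Tag maps such a mark with an antibody that tethers a transposase to the chromatin bearing it. The cells were mouse embryonic stem cells (mESCs) of the genotype FOXD3-iKO, an inducible knockout of the forkhead transcription factor FOXD3, grown in L2i medium, with a labelled treatment time of 24 h. Per the series' design text, FOXD3 was depleted with tamoxifen (4HT) and set against solvent. The labels give 3 samples each to ED, ET, TD and TT, 12 of the 28 samples of the series. All 4 groups share the genotype, medium and treatment time. The labels do not spell the codes out, so TD and ED are kept as codes, and which of them, if either, lacks FOXD3 is not stated. The deposited name of the H2BK120ac values also carries the tags async, for asynchronous cells, and trp, which the labels do not explain. Whether the second letter of a code stands for a further treatment is not stated. The labels also do not say whether the 3 samples of a group came from separate cultures, or whether the line is 1 clone.

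The authors merged the 3 samples of a group into 1 column, so the spread between replicates could not be measured and no test was possible. Every difference below is a difference between merged columns. A region was called higher or lower in TD when it differed by at least 2-fold on the log2(value + 0.4) scale, a scale that understates the change of low regions. For the ratio of TD to ED, a 95% counting interval was taken from the fragment pile-up by the Clopper-Pearson formula. Its counts were the mean pile-up of the region in fragments, rounded to whole numbers. Mean pile-up is not the number of fragments in a region. The interval is therefore at most a rough guide to counting error, and it covers no other error. These intervals rest on reading the commonest value of a column, 0.445 in ED and 0.412 in TD, as 1 fragment, which implies 2248000 fragments in ED and 2430000 in TD. At that depth 38.7% of the regions had no coverage in ED and 48.2% had none in TD.

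Acetylated lysines on histone tails and on the H2B core weaken the contact of the nucleosome with DNA and are read by bromodomain proteins. Marks of this kind are found at the promoters and enhancers of active genes. The same lysine of H2B can carry ubiquitin in place of the acetyl group, and the ubiquitylated form is known from the bodies of transcribed genes.

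Promoters of p53 target genes were among the sites where TD stood furthest above ED, so the bases before 5 of their transcription start sites (TSS) are shown first. All 5 hold a marked motif, and other strong promoters of these lists, such as that of Bbc3, are not shown. The 5 therefore do not show how often such promoters hold a motif. Each line gives 250 bases that end just before a RefSeq TSS (GRCm38.p6, the mm10 build), 5′ to 3′ on the strand of the gene. Capitals mark the p53 decamer, a pair of which makes a full p53 response element, in Cdkn1a, Mdm2, Ccng1 and Bax, and TGACGTCA, the motif of CREB and ATF proteins, in Plk2.
Cdkn1a, chr17:29090729-29090978, plus strand: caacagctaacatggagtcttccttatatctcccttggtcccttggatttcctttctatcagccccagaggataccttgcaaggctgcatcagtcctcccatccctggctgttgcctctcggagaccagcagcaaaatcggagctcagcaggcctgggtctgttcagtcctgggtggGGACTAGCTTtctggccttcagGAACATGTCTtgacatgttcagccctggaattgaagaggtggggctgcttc
Mdm2, chr10:117710759-117711008, minus strand: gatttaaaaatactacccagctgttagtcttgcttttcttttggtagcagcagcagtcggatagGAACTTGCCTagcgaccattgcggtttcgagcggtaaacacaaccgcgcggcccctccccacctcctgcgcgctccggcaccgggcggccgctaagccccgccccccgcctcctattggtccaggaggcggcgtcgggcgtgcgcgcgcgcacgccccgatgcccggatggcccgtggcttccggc
Ccng1, chr11:40755287-40755536, minus strand: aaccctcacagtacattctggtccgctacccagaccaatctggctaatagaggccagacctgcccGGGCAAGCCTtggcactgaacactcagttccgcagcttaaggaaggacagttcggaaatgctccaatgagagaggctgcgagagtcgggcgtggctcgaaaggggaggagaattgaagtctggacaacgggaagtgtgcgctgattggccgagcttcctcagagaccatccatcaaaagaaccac
Bax, chr7:45466899-45467148, minus strand: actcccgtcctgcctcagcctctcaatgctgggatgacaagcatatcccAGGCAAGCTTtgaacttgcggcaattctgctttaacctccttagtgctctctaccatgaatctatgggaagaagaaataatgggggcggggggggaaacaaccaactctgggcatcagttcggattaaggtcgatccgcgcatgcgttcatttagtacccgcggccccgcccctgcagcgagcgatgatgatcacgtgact
Plk2, chr13:110394794-110395043, plus strand: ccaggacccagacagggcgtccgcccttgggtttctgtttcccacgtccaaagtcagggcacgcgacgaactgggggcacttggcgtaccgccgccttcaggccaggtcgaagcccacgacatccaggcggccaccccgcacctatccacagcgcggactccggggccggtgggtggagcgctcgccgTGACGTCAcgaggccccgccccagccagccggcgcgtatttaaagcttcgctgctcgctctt
Cdkn1a holds a pair of decamers, which start 73 and 51 bases before the TSS. The decamers of Mdm2, Ccng1 and Bax start 186, 185 and 201 bases before it, and the motif of Plk2 starts 62 bases before it. The Bax decamer lies outside chr7:45466429-45466992, the region whose values are given below for Bax. A match is a description of the letters, not a bound site.

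TD exceeded ED close to TSS and was below it far from them. Over the 18714 regions within 1 kb of the TSS of a protein-coding gene, mean coverage was 0.428 in ED and 0.711 in TD, a ratio of 1.66. The ratio was 1.18 at 1 to 5 kb, 1.06 at 5 to 20 kb, 0.92 at 20 to 100 kb and 0.662 beyond 100 kb. ED was nearly level across these classes, from 0.422 to 0.437, while TD ran down from 0.711 to 0.289. Fewer regions far from a TSS were covered in TD. At 20 to 100 kb, 60.5% of regions were covered in ED and 48.9% in TD, and over covered regions alone TD was the higher, with a ratio of 1.14. Beyond 100 kb, 55.6% of regions were covered in ED and 39.5% in TD, and the ratio over covered regions alone was 0.932. Within 1 kb of a TSS the covered shares were 72.5% and 73.9%, and the ratio over covered regions was 1.63.

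**Figure D1:**
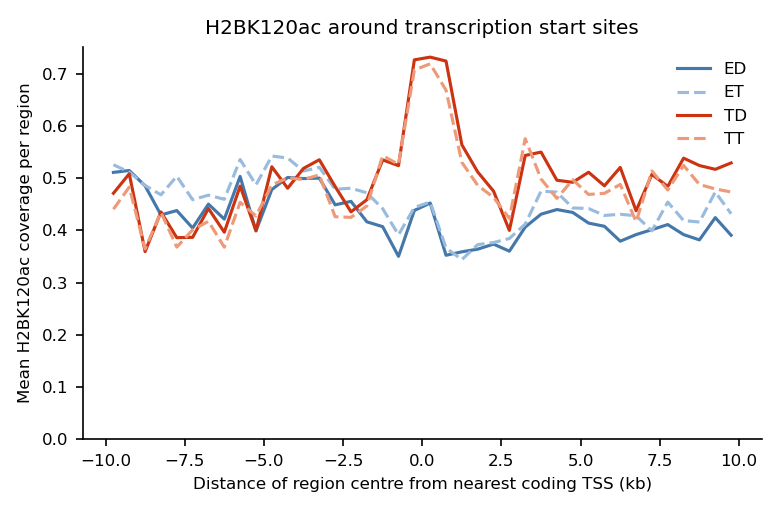
Mean H2BK120ac coverage per region (vertical axis, deposited coverage units) in bins of 500 bp of the distance between region centre and nearest coding TSS (horizontal axis, kb; negative is upstream), with 1 line for each merged column. TD and TT stand at 0.732 and 0.719 just downstream of the TSS, where ED and ET stand at 0.452 and 0.454.

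In the 500 bp next to the TSS, TD stood above ED alike on both sides, at 0.727 against 0.438 upstream and 0.732 against 0.452 downstream. Farther out the sides differed. In the bin 500 to 1000 bp downstream of the TSS the means were 0.352 in ED and 0.724 in TD, and in the bin 500 to 1000 bp upstream they were 0.35 and 0.524. High values were also spread differently over the genome. Of the 2978 regions at a coverage of 2 or more in ED, 2.45% were TSS-proximal (within 1 kb), against 28.4% of 4689 such regions in TD. A coverage of 10 or more was reached by 12 regions in ED and 210 in TD.

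Among regions selected without the H2BK120ac columns, the 2-fold calls showed the same divide. H3K27ac, an acetylated lysine of histone H3 at active promoters and enhancers, was deposited for the same regions in EtOH-treated and 4HT-treated asynchronous cells, from other samples. Of 3735 TSS-proximal regions with a mean H3K27ac pile-up of at least 5 fragments, 1348 (36.1%) were higher in TD and 112 (3%) were lower. Of 10072 distal regions chosen the same way, 1447 (14.4%) were higher and 2790 (27.7%) were lower. Beyond 100 kb the shares were 5.91% higher and 45.4% lower. Over all 13807 of these regions the calls nearly balanced, with 2795 (20.2%) higher and 2902 (21%) lower. The counting interval of the ratio lay above 1 in 294 of the proximal regions and below 1 in 1 of them. In the distal regions it lay above 1 in 518 and below 1 in 406, the opposite lean from that of the distal calls.

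**Figure D2:**
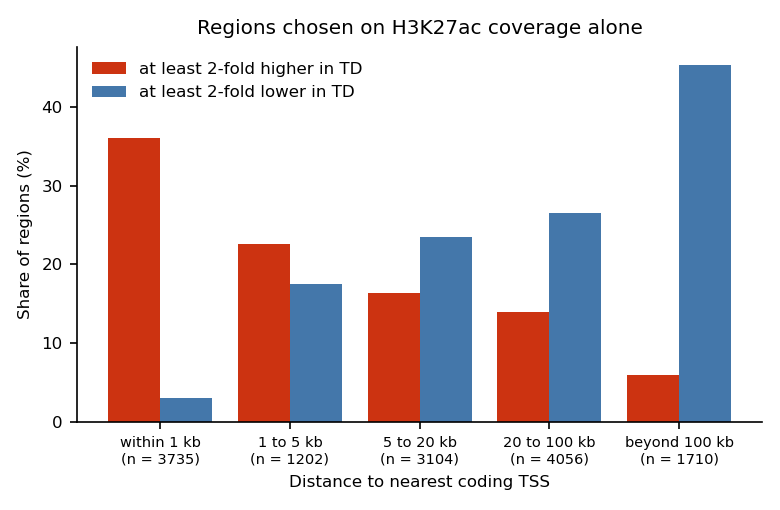
Share of regions (vertical axis, %) called at least 2-fold higher (red) or lower (blue) in TD than in ED, by distance to the nearest coding TSS, over regions chosen on H3K27ac coverage alone (n under each class). The red bars run down from 36.1% to 5.91% and the blue bars run up from 3% to 45.4%.

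At TSS the gap widened with the H3K27ac level of the region. TSS-proximal regions with under 1 fragment of H3K27ac had a TD to ED ratio of 0.988, and those with 20 or more had a ratio of 2.95 (means of 3.77 and 1.28, 185 regions). In distal regions the ratio lay between 0.824 and 1.01 at every H3K27ac level. Both columns gained coverage with H3K27ac in distal regions, from 0.188 to 2.66 in ED and from 0.155 to 2.68 in TD. H3K27ac was normalized apart, so its level orders the regions and is not compared with that of H2BK120ac.

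**Figure D3:**
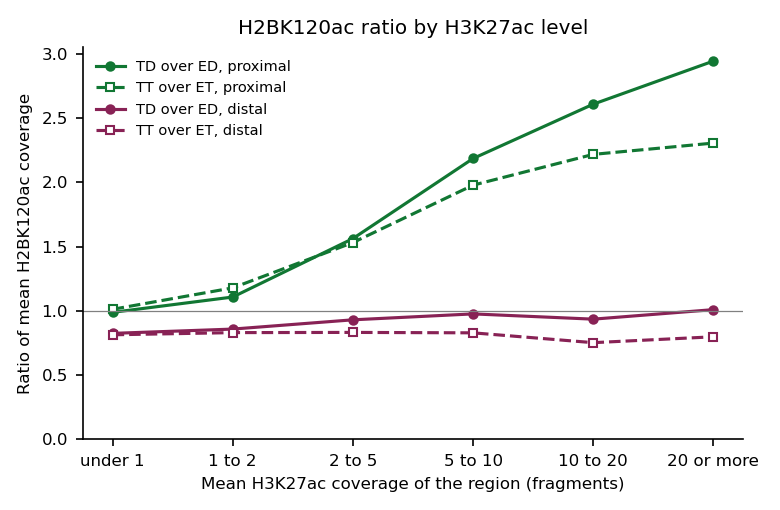
Ratio of mean H2BK120ac coverage (vertical axis) by mean H3K27ac coverage of the region in fragments (horizontal axis), for TSS-proximal (green) and distal (purple) regions, TD over ED (solid) and TT over ET (dashed). The proximal TD over ED ratio climbs from 0.988 to 2.95 and the distal one stays between 0.824 and 1.01.

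A mean pile-up of at least 5 fragments over the 4 H2BK120ac columns (a value of 2.15) was reached by 2782 regions, called well covered. Of these, 1533 (55.1%) were higher in TD and 514 (18.5%) were lower, and after median centring of the columns the shares were 34.8% and 33.1%. Of the 429 well-covered TSS-proximal regions, 378 (88.1%) were higher and 1 (0.233%) was lower. Of the 2353 distal ones, 1155 (49.1%) were higher and 513 (21.8%) were lower. The counting interval lay above 1 in 1157 regions and below 1 in 273. This balance moved with the columns used to select the regions. Selection on ED and ET gave 163 higher and 1446 lower, and at TSS-proximal regions 8 higher and 11 lower of 43. Selection on TD and TT gave 2952 higher and 46 lower, and with no selection 19514 of all regions (15.3%) were higher and 28137 (22%) were lower. With no selection the TSS-proximal regions had 22.4% higher and 12.6% lower, and the distal regions 14.1% and 23.7%.

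**Figure D4:**
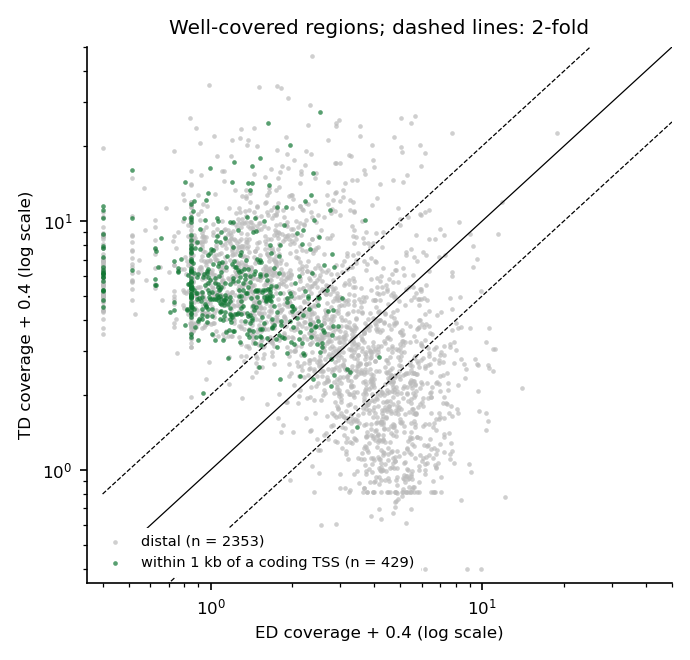
TD against ED coverage of the 2782 well-covered regions, both axes log scale after adding 0.4; green points lie within 1 kb of a coding TSS, grey points are distal, and dashed lines mark 2-fold. The green points lie above the upper dashed line in 378 of 429 cases, and the grey points form a cloud on each side.

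Among the well-covered regions, those higher and those lower in TD differed in place and in H3K27ac. The 1533 higher regions lay a median of 13212 bp from a TSS, 65.9% of them inside a gene span, with median coverage of 0.845 in ED and 5.71 in TD. The 514 lower regions lay a median of 90956 bp away, 20.2% inside a gene span, with medians of 4.57 and 1.03. H3K27ac was well covered in 60.7% of the higher and in 94.2% of the lower regions. Median H3K27ac in EtOH was 1.09 in the higher and 2.55 in the lower class. Over all well-covered regions the median distance was 25487 bp and 49.3% lay inside a gene span. H3K27ac was well covered in 75.4% of them, with a median of 1.83 in EtOH. Regions of either class entered this set mainly through the columns where they were high, so these contrasts describe the selected regions only. The higher share by chromosome ran from 46.5% on chromosome 13 to 71.8% on chromosome 11, and the lower share from 12.8% on chromosome 11 to 28.9% on chromosome 9.

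p53 is a transcription factor that stress stabilizes, and its targets arrest the cell cycle, start cell death or feed back on p53. Genes were compared by the mean of all their TSS-proximal regions, without a coverage filter. By that measure 2664 of 13602 genes (19.6%) were higher in TD, 1290 (9.48%) were lower, and the median log2 difference was 0.05. Since 1 fragment against none passes the 2-fold rule, the number of genes whose strongest TSS-proximal region had a counting interval above 1 is given beside it: 341 of 13602 (2.51%), with 2 (0.0147%) below 1. Below, the values quoted for single list genes are those of the strongest TSS-proximal region, picked on the mean of ED and TD, unless another region is named. Where a gene has several such regions, its mean, which the list counts and medians use, can differ from them. The lists were drawn up with earlier results of these data known, and their counts describe them.

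Among p53 targets for arrest and feedback, 11 of 15 genes were higher in TD and none lower. Their median was 2.24, and 9 intervals lay above 1. In TT against ET, 11 were higher and 1 was lower, against 19% and 8.72% of all genes. With genes uncovered in ED set at a floor of 3 fragments the median was 2.17. Ccng1 (cyclin G1, a feedback regulator) had the highest promoter: the region chr11:40754734-40755860, across the sequence shown above, stood at 27.1 (TD) and 21.04 (TT), against 2.12 (ED) and 3.28 (ET). TD was 12.8 times ED (counting interval 4.98 to 38.8). Cdkn1a (p21, the inhibitor of cyclin-dependent kinases) stood at 15.9 (TD) and 12.8 (TT) against 0.596 (ED) and 0.364 (ET), at a second RefSeq TSS downstream, in chr17:29093528-29093872. The region on the upstream promoter, whose pair of decamers is printed above, held 13.6 in TD and 1.25 in ED. Mdm2, the ubiquitin ligase that degrades p53, stood at 11.3 in TD and 10.4 in TT against 0.445 and 0.607 in chr10:117709943-117710493. The counting interval there began at 4.28. That region does not overlap the Mdm2 sequence printed above. The region on the printed sequence, chr10:117710584-117711015, held 4.54 in TD and 0.445 in ED. In all 3 genes both T-coded columns lay far above both E-coded columns. Plk2 (a stress-induced kinase) had 9.63 against 0.665, Trp53inp1 (a promoter of p53 activity) 9.56 against 1.17 and Sesn2 (a sestrin of the stress response) 8.01 against 0.445. Gtse1, which moves p53 out of the nucleus, had 7.38 in TD and no coverage in ED. Not every member differed: Sesn1, Ppm1d, Plk3 and Rprm stood below 1 in both columns, and the 4 intervals all contained 1.

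Of the p53 targets for cell death, 11 of 13 were higher in TD and none lower, and TT against ET gave the same counts. Their median was 2.08 (1.78 with the floor), and 8 intervals lay above 1. Bbc3 (PUMA, an activator of mitochondrial death) led with 19.8 (TD) and 15.1 (TT) against 1.56 (ED) and 2.50 (ET), in chr7:16309245-16309710, 12.7 times ED (4.06 to 42.4). Phlda3, an inhibitor of AKT, stood at 7.84 and 8.97 against 0.49 and 1.05. The death receptor gene Eda2r stood at 7.8 and 6.53 against 0.685 and 1.63. Pidd1 (a scaffold for caspase activation), Bax (the pore-forming effector), Aen (a nuclease), Pmaip1 (NOXA) and Fas (a death receptor) had TD values between 2.52 and 5.81, with ED between 0 and 0.687. Ei24 was covered in every column, at 2.15 in ED and 3.42 in TD, and its interval (0.427 to 5.75) contained 1.

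The p53 targets for DNA repair and metabolism were closer to all genes. Of 10, 5 were higher in TD and none lower, with a median of 0.73, which was 0.07 with the floor, and 1 interval lay above 1. That was Cpt1c, a carnitine palmitoyltransferase, with 3.75 in TD and 0.518 in ED. The repair genes Xpc, Ddb2 and Rrm2b stood between 0.587 and 0.795 in both columns.

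**Figure D5:**
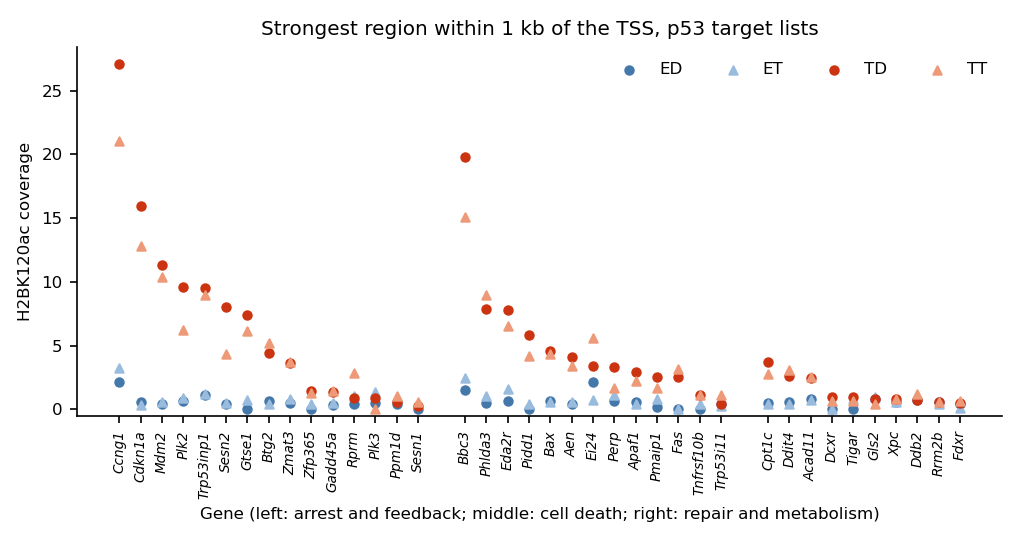
H2BK120ac coverage (vertical axis, linear) of the strongest region within 1 kb of the TSS for the p53 target genes with such a region, with 1 point per merged column (circles for ED in blue and TD in red, triangles for ET in light blue and TT in orange). Ccng1 (27.1 in TD), Bbc3 (19.8) and Cdkn1a (15.9) lead, and the repair and metabolism genes on the right stay at or below 3.75.

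Scaling moved the lists as a whole but not the order at the top. Median centring moved the median of all genes from 0.05 to -0.50, and relative to it the arrest and death lists stood at 2.05 and 1.90, against 2.19 and 2.03 without centring. Centring turned the medians of 12 lists from above 0 to below it (p53 repair, AP-1, SRF, integrated stress, NRF2, hypoxia, cholesterol, NF-kB, TGF-beta, pluripotency, cyclin and primitive endoderm), so those are read only against the median of all genes. Relative to it, the integrated stress list turned from 0.13 to -0.08 and the pluripotency list fell from 0.29 to 0.001. The SRF list rose from 0.03 to 0.33, and the interferon list, whose own median stayed at 0, from -0.05 to 0.50. The standing of the lists near all genes thus depends on the scaling. Quantile normalization left the sign of these 12 medians as it was.

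Of 20 AP-1 and immediate early genes, 8 were higher and 1 was lower, with a median of 0.51 (0.39 with the floor) and 3 intervals above 1. In TT against ET, 11 were higher and none lower, with a median of 1.03 against 0.09 for all genes. That median is the value given by 1 fragment in TT against none in ET, and no floor was applied to it. It is therefore not read as a typical gain of these genes. Junb (an AP-1 subunit) stood at 13.95 (TD) and 8.57 (TT) against 0.404 (ED) and 0.537 (ET). Ier2 had 6.14 in TD and none in ED, and Jun had 3.62 against 0.445. Fos had 3.35 against 0.445 with an interval from 0.992, while Egr1, Fosl2 and Myc stood between 0.563 and 0.956 in both columns.

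Other signalling and stress lists ranged down to near the level of all genes. YAP and TEAD targets had 8 of 14 higher and none lower (median 1.12, or 0.85 with the floor), led by Amotl2, an angiomotin that binds YAP, at 6.33 against 0.798. Heat shock and chaperone genes had 7 of 13 higher and none lower (median 1.14, or 0.55 with the floor), led by the constitutive chaperone Hspa8 at 5.23 against 0.577. The NRF2 list had 4 of 14 higher (median 0.72), with the ferritin light chain gene Ftl1 at 9.27 against 1.46 and Nfe2l2, which encodes NRF2, at 4.87 against 0.915. In the same list Nqo1, a quinone reductase, stood at 2.07 in TD and 2.87 in ED. The integrated stress list had 4 higher and 2 lower of 14 (median 0.18), and Sesn2, shared with the arrest list, gave its 1 interval above 1. TGF-beta and SMAD targets had 6 of 15 higher (median 0.44), led by the ligand gene Nodal at 6.12 against 0.242.

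SRF targets (2 of 12 higher, median 0.08), interferon genes (2 of 9, median 0) and NF-kB genes (2 of 13, median 0.36) stayed near all genes. Adhesion genes had 1 higher and 2 lower of 15, with a median of -0.03. Among abundant housekeeping genes, cytosolic ribosomal protein genes had 10 of 19 higher and none lower (median 1.02, or 0.71 with the floor), with Rpl19 at 6.46 against 0.701 and Rpl4 at 5.53 against 0.537. Core histone genes, whose near-identical copies can share reads, had 6 of 13 higher and none lower (median 0.76, or 0.44 with the floor). Cyclins and cell cycle engines had 5 of 21 higher and none lower (median 0.55, or 0 with the floor), and no interval lay above 1. Hypoxia and glycolysis genes had 5 of 15 higher (median 0.68, or 0.39 with the floor), also with no interval above 1, and none of the 15 was called in TT against ET. Cholesterol genes had 3 higher and 2 lower of 13 (median 0.22).

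The other lists also differed between the contrasts in part. In TT against ET, heat shock genes had 5 higher and 2 lower, YAP targets 5 and 0, NRF2 genes 3 and 1, NF-kB genes 3 and 2 and SRF targets 1 and 2. Ribosomal protein genes had 9 higher and none lower, core histone genes 6 and 0, cyclins 4 and 0, TGF-beta targets 5 and 0, and integrated stress genes 5 and 0. Pluripotency genes had 8 higher and 2 lower, cholesterol genes 4 and 0, adhesion genes 1 and 2, and no interferon gene was called.

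Promoters of the 24 pluripotency genes averaged 0.694 in ED and 1.503 in TD, against 0.441 and 0.715 over all genes. Of them, 8 were higher and 1 was lower in TD, with a median of 0.33 and 1 interval above 1, that of Klf5 (4.74 against 0.588). The core factor Sox2 stood at 3.70 in TD and 0.798 in ED with an interval from 0.862. The naive factor Klf2 stood at 4.15 and 1.60, and Tbx3 at 4.02 and 0.897, both with intervals that contained 1. Pou5f1 stood at 1.30 and 0.111, Nanog at 1.19 and 0.79 and Lin28a was uncovered in TD.

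The labelled cell type was checked on the same promoters. The 8 embryonic stem cell markers had a mean of 0.642 in ED and 1.74 in TD, and all 8 were covered in ED. The fibroblast, primitive endoderm and neuroectoderm markers had means between 0.319 and 0.362 in ED and between 0.224 and 0.341 in TD, and every counting interval at their promoters contained 1, as did those of the stem cell markers. Coverage was 0 in TD at 5 of 8 fibroblast, 3 of 8 endoderm and 4 of 12 neuroectoderm genes, against 1 of 8 stem cell genes. In ED it was 0 at 4 fibroblast, 1 endoderm and 2 neuroectoderm genes, so ED coverage hardly set the last 2 lists apart. Over all 13602 genes it was 0 at 2690 in ED and 2696 in TD. The 1 olfactory receptor gene with a TSS-proximal region was uncovered in both columns, and none of the 12 genes of the totipotent-like state had such a region.

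Beyond the lists, the 10 well-covered TSS-proximal regions with the largest TD excess among those covered in both columns were those of Traf4, Cd81, Junb, Cdkn1a, Gm50595, Dido1, Ptp4a1, Mdm2, Mmrn2 and Glrx3. Traf4, an adaptor of TNF receptor signalling, stood at 15.6 in TD and 10.2 in TT, against 0.111 and 0.445. Cd81, a tetraspanin gene, stood at 9.84 and 9.04 against 0.111 and 0.34. Ptp4a1, a protein phosphatase gene, stood at 11.6 and 9.6 against 0.465 and 0.455. The 10 stood between 8.12 and 24.4 in TD and between 0.111 and 1.23 in ED. The highest was the predicted gene Gm50595 at 24.4 against 1.23, in chr2:75633437-75634275.

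At the other end 1 of the 429 well-covered TSS-proximal regions passed the 2-fold rule. The region chr7:127212595-127212770, 987 bp from the TSS of Mylpf, a skeletal muscle myosin light chain gene, had 1.08 in TD against 3.04 in ED, with an interval of 0.0661 to 1.74. Next in order came Vmn2r12 (2.44 against 3.78) and Nqo1, both within 2-fold. Among these 10 lowest proximal regions the last, Rpl7, already had more coverage in TD (2.58) than in ED (2.12).

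The highest TD values were distal. A region inside Ranbp3, 6914 bp from the TSS of Vmac (chr17:56709777-56710007), stood at 45.4 (TD) and 37.4 (TT) against 1.97 (ED) and 1.06 (ET), 23.1 times ED, with an interval from 9.66. A region 38235 bp from the TSS of the receptor gene Gpr157 (chr4:150048557-150049268) stood at 34.7 and 29.8 against 0.587 and 1.58. Atp9a, a flippase gene, had 34.5 against 1.35 in a region inside its span, and Ppp1r21 had 34.2 against 1.11 in a region 31125 bp from its TSS. These 4 sites were each covered far more in TD and TT than in ED and ET, at H3K27ac values in EtOH from 0.69 to 4.03. The other distal regions with the largest excess were named for Ier2, Arhgef33, Ctc1, Camsap3, Nmral1 (inside Dnaja3) and Rpl34-ps1, with at most 21.6 in TD and at most 0.627 in ED.

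Some higher regions formed runs. Of the 1533, 703 had any well-covered region within 10 kb and 632 (41.2%) had another higher one, while 383 of the 735 regions between had any well-covered neighbour. The classes differ in size, so their same-class shares are not compared. Joined across gaps of up to 10 kb they formed 901 single regions, 221 pairs, 39 runs of 3, 13 of 4, 3 of 5 and 1 of 6. The run of 6 regions covered 8402 bp at Mcl1, a BCL2-family survival gene, with means of 0.937 in ED and 5.64 in TD. Chosen after their values were seen, runs at Mdm2 (4 regions, 0.445 against 8.9), at Bax and Ftl1 (4 regions, 1.11 against 8.06), at the bromodomain gene Brd2 (4 regions, 1.38 against 8.63), at the methylcytosine dioxygenase gene Tet1 (4 regions, 0.283 against 7.79) and at Mdm4, the p53 inhibitor related to Mdm2 (3 regions, 1.65 against 19.7), show the size of the gap over several regions.

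The regions with the largest deficit in TD lay mostly far from a TSS. The largest was chr1:35220796-35221101, 370807 bp from the nearest TSS (Plekhb2), with 11.8 in ED and 0.379 in TD. ET and TT stood between, at 4.89 and 2.76. A region inside the complement gene C7 stood at 7.95 (ED) and 3.68 (ET) against 0.358 (TD) and 0.589 (TT). The other 8 were named for Pja2, Manea, Enpp6, Bmper, Klhl29, Clec14a, Ldah and Lsm8, with ED between 3.79 and 8.68 and TD between 0.103 and 0.66, and 7 of the 10 lay over 100 kb from a TSS.

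Some of the strongest ED regions did not differ. The highest ED value, 18.5 at chr8:19784839-19784972 near 4930467E23Rik, stood beside 22.2 in TD, and the ratio of 1.2 had an interval of 0.78 to 1.82. A region near Col19a1 had 11.4 and 11.5. Both sites were also high in H3K27ac, at 48.5 and 18.5 in EtOH. The region near 4930467E23Rik held the highest value of all regions in ED, in ET and in both H3K27ac columns. Whether background or read mapping raises the coverage of these sites in every column was not tested. The region near Robo2, by contrast, had 13.6 in ED and 1.73 in TD (ratio 0.126, interval 0.0306 to 0.338). Just inside the 2-fold rule lay Rapgef1 (2.73 in TD, 1.16 in ED) and Clint1 (2.30 and 5.01), and just outside it lay Arl14epl (2.74 and 1.18) and Ythdf3 (1.70 and 3.79), all with intervals that contained 1.

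TT against ET shares no sample with TD against ED. Of the 1533 regions higher in TD, 1506 (98.2%) had TT above ET and 1292 (84.3%) passed the 2-fold rule there, against 49.6% of all well-covered regions. Of the 514 lower regions, 510 had TT below ET and 433 (84.2%) passed it, against 21.6%. Over all 2782 well-covered regions TT was above ET in 1793 and below it in 989. The selection used all 4 columns, so these shares are descriptions. Over regions chosen on H3K27ac, TT against ET gave 17.3% higher and 24.1% lower. The shares were 32.2% higher and 3.27% lower at TSS-proximal sites, and 11.7% and 31.8% at distal sites. The mean ratio within 1 kb of a TSS was 1.58 for TT over ET, beside 1.66 for TD over ED. Beyond 100 kb it was 0.593, beside 0.662.

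The 20 regions within 50 kb of Foxd3 averaged 0.967 for ED, 1.43 for ET, 0.682 for TD and 0.908 for TT. Of them, 17 were covered in ED and 17 in TD, not all of them the same regions. By the 2-fold rule 2 were higher in TD and 7 were lower (over all regions, 15.3% were higher and 22% lower), and 1 was well covered, with 3.05 in TD and 2.17 in ED. The region 170 bp from the TSS held 0.474 in TD and nothing in ED. H2BK120ac coverage does not measure the FOXD3 protein or its deletion, so it does not check the codes.

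The letters of the promoters were compared on 300 bases around each RefSeq TSS, on both strands. Of the promoters on a region, 231 lay on a well-covered region higher in TD. The p53 decamer was held by 25 of them (10.8%), against 8.36% of all 32851 promoters, 6.95% of the 12463 on a region and 9.52% of the 42 on a well-covered region that was not higher. Among promoters on regions with a 4-column mean of at least 0.4, the shares were 6.73% of 1708 higher, 6.84% of 5369 between and 7.12% of 351 lower. A pair of decamers with at most 13 bases between them was held by 2 of the 231 (0.866%), Cdkn1a and Pard3, against 0.0731% of all promoters. TGACGTCA was held by 5.19%, against 1.79% of all promoters and 2.97% of those on a region. The AP-1 motif TGANTCA (4.33% against 7.81%), the forkhead motif TGTTTAC (3.46% against 3.65%), TATAAA (6.93% against 13.6%), CCAAT (39.4% against 37.4%) and GGGCGG (62.8% against 35.7%) gave the other shares, higher regions first and all promoters second. The shares over promoters on a region were 5.05%, 2.58%, 6.77%, 37.6% and 63.1%. TD stood further above ED at promoters with more CpG: the ratio of means was 1.21 at under 5 CpG and 1.75 at 25 or more.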

How the data were processed

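CUT&Tag for H2BK120ac was measured in 3 samples for each of the 4 coded groups. Per the file headers the authors merged the replicates of a group, and the deposited values are coverage signal per region, named CPM in the table names. Regions are 112 to 3246 bp wide (median 252 bp). The build is mm10 per the submitters' processing notes, which also name featureCounts and DESeq2, for the H3K27ac samples and without a role. Not given in the sources used here are the aligner, the coverage tool and the rule that set the regions. No value is below 0.25 of the commonest value and none is 0, so the mean of a region appears to skip its uncovered bases, and sparse regions read high. How far this, or antibody background, shapes the columns was not tested. A further 16 columns, named IgG, could be tied to none of the samples and were not used.

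Another 12 samples, from phase-sorted cells, were left out here. Missing values were set to 0. The pseudocount was 0.4, the rounded 25th percentile of values above 0. TSS of 21490 of 21887 RefSeq protein-coding genes (GRCm38.p6) came from the promoter table (17492 genes) or, for 3998, from the span end nearest a deposited TSS window of 5 kb. Spans carry no exons or untranslated regions. A region takes the gene of the nearest TSS. Text names follow a rule: the 10 largest and 10 smallest log2 differences among well-covered regions covered in both columns, proximal and distal; the 5 highest values of each column; the 2 strongest promoters of each list; stem cell markers and Foxd3; regions next to the threshold; and 5 strong regions within 1.1-fold. Other list members were named after their values were seen. The 25 lists (371 genes) and the comparison itself were chosen with earlier results of these data known. Planned gene values used regions with a 4-column mean of at least 0.4 within 50 kb of the TSS; the unfiltered TSS-proximal means are reported in their place, since that filter can admit a gene through the column where it is high. Alternatives covered the pseudocount, coverage filters, scaling, missing values and TSS distance. Python 3.11.15, numpy 2.4.6, pandas 2.3.3, scipy 1.17.1 and matplotlib 3.10.9 were used. The calls were also run on simulated whole-number counts without replicate spread. The deposited values differ from such counts, so the simulation does not give the error of these calls.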

Additional observations from a re-analysis of the deposited data

Results flagged for a closer look

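Of the 1533 regions higher in TD than in ED, 6 were lower in TT than in ET by 2-fold or more. The difference between these contrasts was not tested, since each column is 1 merged value. A region inside Fn1, the fibronectin gene, differed by 1.28 on the log2 scale in TD against ED and by -1.10 in TT against ET. Regions near Kcnv1 (1.03 and -1.18), Bambi (1.86 and -1.29), Zscan2 (1.18 and -1.50) and Apela (1.06 and -1.65) did the same. The widest split was a region inside Hmgxb4, 7100 bp from the TSS of Tom1 (1.76 and -2.63), with 0.624 (ED), 3.07 (TD), 6.25 (ET) and 0.675 (TT). The counting interval of the TD to ED ratio lay above 1 for the Bambi region and contained 1 for the other 5. That of the TT to ET ratio lay below 1 for the Tom1 region (0.0147 to 0.579) and contained 1 for the other 5, so no region was clear of 1 in both contrasts.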

How the results depend on the processing

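Counts are given as higher, lower, TSS-proximal higher and TSS-proximal lower in TD, and the reported counts are 1533, 514, 378 and 1. A minimum of 3 fragments gave 3154, 1534, 1022 and 15, and a minimum of 10 gave 372, 62, 53 and 0. Without a filter they were 19514, 28137, 4199 and 2359, and over regions chosen on H3K27ac 2795, 2902, 1348 and 112. Median centring gave 969, 921, 247 and 8, with a median log2 difference of the well-covered regions of 0.18 in place of 1.28, and quantile normalization 1350, 669, 347 and 2. Filters chosen after seeing the data gave 163, 1446, 8 and 11 on ED and ET, and 2952, 46, 929 and 0 on TD and TT. The filter on ED and TD gave 3 proximal regions lower, a TSS distance of 500 bp gave 0 and one of 2 kb gave 4. The other settings, pseudocounts of 0.2 and 0.8, the filter on ET and TT and missing values left out, kept all 4 counts within 1.5 times. TSS-proximal higher calls outnumbered lower ones in every setting but the filter on ED and ET. Of 126 named regions, 3 that had passed the 2-fold rule fell below 0 under median centring: Rapgef1 (-0.062), Kcnv1 (-0.095) and Apela (-0.042). Centring lowers TD against ED throughout, as the median of 0.18 in place of 1.28 shows. Named regions with smaller positive differences can therefore also change sign, and they are not in this count. For the planned gene values from filtered regions, the median of all genes was 0.10 and -0.72 under median centring, where 3 lists kept a positive median: p53 arrest (1.09, from 2.04), p53 cell death (0.93, from 1.92) and integrated stress (0.12, from 1.02). No paired analysis was possible because each group has 1 merged column without replicate numbers, and for the same reason no replicate could be left out. Depth limits these data: the mean pile-up reached 5 fragments in 2782 of 127646 regions.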
